A study of Mus musculus with 2 samples.

Results

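The miRNAs described here are 7 miRNAs best known from the nervous system, mmu-miR-9, mmu-miR-124, mmu-miR-128, mmu-miR-129-3p, mmu-miR-137, mmu-miR-138 and mmu-miR-219. They were taken by name from the 696 mouse miRNAs of the array. Signals were set side by side for the 3rd mammary gland, called the gland, where the epithelial bud sinks into the mesenchyme, and the inter mammary gland region, called the flank, which lies between the 3rd and the 4th gland. Both tissues came from untreated ICR mouse embryos at E13.5, and 100 ng of total RNA from each was labelled with Cy3. Each region was measured on 1 array of an Agilent 1-colour miRNA microarray, and both arrays lay on the same slide and were read in the same scan. The number of embryos behind each RNA sample is not given in the sources used here. With 1 array per region there were no replicates, so no test was run. Every error given is the technical spread over the spots of an array, apart from the errors that the scanner software gives for its own totals.

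A miRNA is a short RNA that binds mRNAs through its seed, bases 2 to 8 from its 5′ end, and lowers the output of those mRNAs. In the developing nervous system miR-9 acts in neural progenitors, miR-124 is the most abundant miRNA of neurons and favours neuronal differentiation, and miR-137 regulates the proliferation of neural stem cells and the maturation of neurons. miR-128 and miR-129-3p are enriched in brain, miR-138 acts on dendritic spines, and miR-219 promotes the differentiation of oligodendrocytes, the cells that form myelin. Several of them are also made outside the nervous system. In bulk tissue such as these samples, fewer cells of a type and less RNA per cell cannot be told apart.

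The 7 miRNAs fell into 3 patterns. The progenitor miRNA miR-9, miR-129-3p and miR-137 were dim on both arrays and had the higher signal in the gland. In the flank none of their spots lay over the highest negative control spot, which was higher there than in the gland. The brightest flank spot of miR-137, at 19.164, lay just under that control, at 19.167. miR-124, the miRNA of neurons, was at the level of the negative controls in both regions. miR-128, miR-138 and miR-219 were detected in both regions and had the lower signal in the gland, by less than 1.5-fold, although the detected probe of miR-138 did not keep its direction across scalings.

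Each miRNA was read by 2 probes with 10 spots each, so that the 7 miRNAs had 140 spots per array. Outlier spots were left out, 3 of the 140 in the gland and 7 in the flank. The unit is the background-subtracted fluorescence of a spot, in arbitrary units, which can fall below 0. The negative control spots, which match no miRNA, averaged 3.81 ± 5.28 (SD, 432 spots) in the gland, with a range from -10.3 to 17.3. In the flank they averaged 2.23 ± 5.07 (SD, 428 spots), with a range from -11.9 to 19.2. In separate parts of the array the highest control spot was at 14.8, 19.2, 14.5 and 14.1 in the flank. In the same parts of the gland array it was at 16.7, 17.3, 17.0 and 15.8. The limit of 19.2 in the flank thus stood apart from the rest of that array and was above that of the gland. Counts of spots over these limits depend on it. Of the spots of the 7 miRNAs, 82 of 137 lay over the highest negative control spot in the gland, and 50 of 133 did so in the flank. Among all miRNA spots the share was 42.5% in the gland and 41.0% in the flank.

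Detection of a probe required the scanner software to mark over 50% of its spots as well above background, and detection of a miRNA required 1 such probe or more. By this rule 3 of the 7 miRNAs (miR-128, miR-138 and miR-219) were detected in the gland, where 42.5% of all 696 miRNAs were detected. The same 3 were detected in the flank, where the share of all miRNAs was 43.1%. The other 4 miRNAs have no fold between the regions by this rule, and their scaled signals are given as differences and quotients. Scaled signals are in units of the flank array, after both arrays were brought to the same 75th percentile over the probes detected on both.

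**Figure D1:**
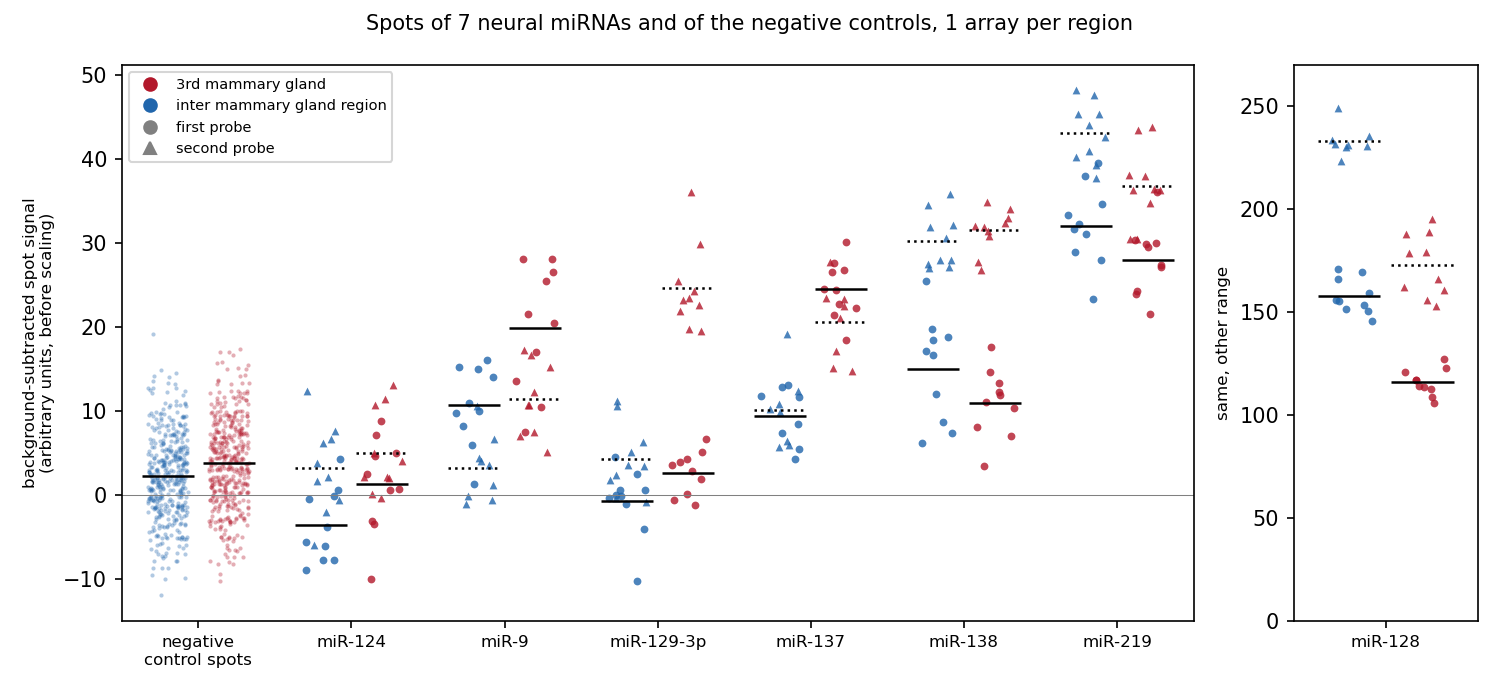
Background-subtracted signal of each spot (arbitrary units, before scaling) for the negative controls and the 7 miRNAs, in the 3rd mammary gland (red) and the inter mammary gland region (blue). Circles and triangles are the first and the second probe of a miRNA in order of probe name, and solid and dotted lines are their means. The spots of miR-137 in the inter mammary gland region reach 19.2, no higher than the highest negative control there, while 15 of 18 in the 3rd mammary gland lie over the highest negative control of that array.

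miR-137 had the higher signal in the gland with both of its probes. The spots of its first probe had a lowest, median and highest signal of 18.5, 24.5 and 30.1 in the gland, against 4.27, 10.1 and 13.1 in the flank. The spots of its second probe had values of 14.7, 21.8 and 27.8 in the gland, against 5.72, 10.1 and 19.2 in the flank. The spots of the regions did not overlap for the first probe and overlapped for the second. After scaling, all 15 spots that could be set against the spot at the same position of the other array were brighter in the gland. Over both probes the scaled signal was 20.6 ± 0.891 (SE over spots) in the gland and 9.73 ± 0.991 in the flank. The difference was 10.9 ± 1.33 and the quotient 2.12, or 1.08 on the log2 scale (SE 0.16). In the gland 15 of 18 spots lay over the highest negative control, and 1 of the 18 was marked as well above background. In the flank 0 of 16 spots lay over the highest negative control. The quotient rested on a divisor within the range of the negative controls, and it fell to 1.14 after normexp correction, which adds an offset of 50 to every spot. With the mean of the negative controls subtracted from each array, an alternative chosen after seeing the data, it was 2.29.

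miR-129-3p differed between the regions mainly with its second probe. The spots of that probe had a lowest, median and highest signal of 19.6, 23.3 and 36.0 in the gland, against -0.877, 3.54 and 11.2 in the flank. These ranges did not overlap, and all 10 spots of the gland lay over the highest negative control. With the first probe the spots had values of -1.16, 3.23 and 6.67 in the gland and -10.2, -0.0709 and 4.50 in the flank. All spots of that probe lay within the range of the negative controls, so the probes of miR-129-3p disagreed. The scaled difference between the regions was 18.2 ± 1.94 (SE) with the second probe and 3.20 ± 1.47 with the first. Over both probes the scaled signal was 12.5 ± 0.809 in the gland and 1.79 ± 0.905 in the flank, a quotient of 6.98 on a divisor near 0. On the log2 scale this was 2.80 (SE 0.74), and it fell to 0.15 after normexp. At the same position of the array 18 of 20 spots were brighter in the gland.

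miR-9 had a difference of like size with both of its probes, 7.49 ± 2.61 (SE) with the first and 7.21 ± 1.84 with the second after scaling. The spots of the first probe had a lowest, median and highest signal of 7.54, 21.0 and 28.1 in the gland, against 1.29, 10.5 and 16.0 in the flank. The spots of the second probe had values of 5.09, 10.75 and 17.3 in the gland, against -1.06, 3.62 and 10.6 in the flank. The regions overlapped for both probes. Over both probes the scaled signal was 14.3 ± 1.27 in the gland and 6.92 ± 0.975 in the flank, a quotient of 2.06. On the log2 scale this was 1.04 (SE 0.24), and it fell to 0.77 with the brightest probe and to 0.16 after normexp. At the same position 16 of 18 spots were brighter in the gland, where 6 of 19 spots lay over the highest negative control. In the flank 0 of 19 did so. No spot of miR-9 was marked as well above background on either array.

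miR-124 had no spot over the range of the negative controls in either region. The spots of its first probe averaged 1.27 ± 5.63 (SD, 10 spots) in the gland and -3.56 ± 4.42 in the flank. Those of its second probe averaged 5.03 ± 4.93 and 3.18 ± 5.30. Of its 20 spots on each array, 0 lay over the highest negative control. The scaled difference between the regions was 3.07 ± 1.54 (SE), and no quotient was formed because the scaled signal of the flank was below 0. miR-9 and miR-124 formed the list of neuron markers, although miR-9 is made in progenitors too. Neither was detected in either region by the share of spots. Their summed scaled signal was 17.1 in the gland and 6.73 in the flank, and miR-9 gave most of it in the gland and all of it in the flank.

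The scanner software makes a call and gives a total signal of its own for each miRNA. It called miR-9, miR-129-3p and miR-137 in the gland only, 3 of the 7, against 12 of all 696 miRNAs, or 1.72%. Of the 11 miRNAs that it called in the flank only, 0 were among the 7. miR-124 was called on neither array, and miR-128, miR-138 and miR-219 on both. The total of miR-137 in the gland was 29.9, with an error of 5.81 given by the software, and equals the sum of both its probes (16.2 and 13.7). For miR-129-3p it was 16.3, with an error of 4.16, and for miR-9 it was 13.1, with an error of 4.07. Each of these totals is that of 1 probe, since the other probe, at 1.77 for miR-129-3p and 7.54 for miR-9, did not enter it. In the flank the software lists all 3 at 0.1, a stand-in for miRNAs that it did not call and not a measured signal. The table of values of the series equals these totals for all 696 miRNAs, unscaled and on a linear scale.

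Among the 384 miRNAs detected on neither array by the share of spots, the scaled signal was on the whole slightly higher in the gland. The median difference was 1.32, the 5th and 95th percentiles were -2.71 and 4.49, and 284 of the 384 were higher in the gland. Among the differences toward a higher signal in the gland, that of miR-137 was the largest of this class, that of miR-129-3p the next and that of miR-9 the one after it, and 66 of the 384 exceeded miR-124. In the other direction, 4 of the 384 differed by more than miR-137 and also by more than miR-129-3p, and 9 by more than miR-9, down to -16.2 for miR-3472, named after its value was seen. By its definition the class lacks dim miRNAs that rose far enough to be detected in the gland. Among all 396 miRNAs not detected in the flank, and toward a higher signal in the gland, 4 had a larger difference than miR-137, 5 a larger one than miR-129-3p and 10 a larger one than miR-9. The 4 were miR-375, both strands of the miR-31 hairpin (miR-31 and miR-31*) and miR-135a, named here after their values were seen, and their differences ran from 31.5 to 95.3.

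A quotient can be formed for 192 of the 384 miRNAs, but its divisor is a signal that was not detected, and no order is read from it. The quotients nearest to that of miR-137 were those of miR-471 (2.11), miR-9 (2.06) and miR-328 (2.05), which were also the nearest to miR-9 together with miR-137 itself. Nearest to miR-129-3p were miR-875-5p (6.31), miR-876-3p (6.06) and miR-509-5p (5.46). The SE of the log2 quotient was 0.60 for both miR-471 and miR-328, and it was 2.86 for miR-875-5p, 1.34 for miR-876-3p and 5.31 for miR-509-5p.

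**Figure D2:**
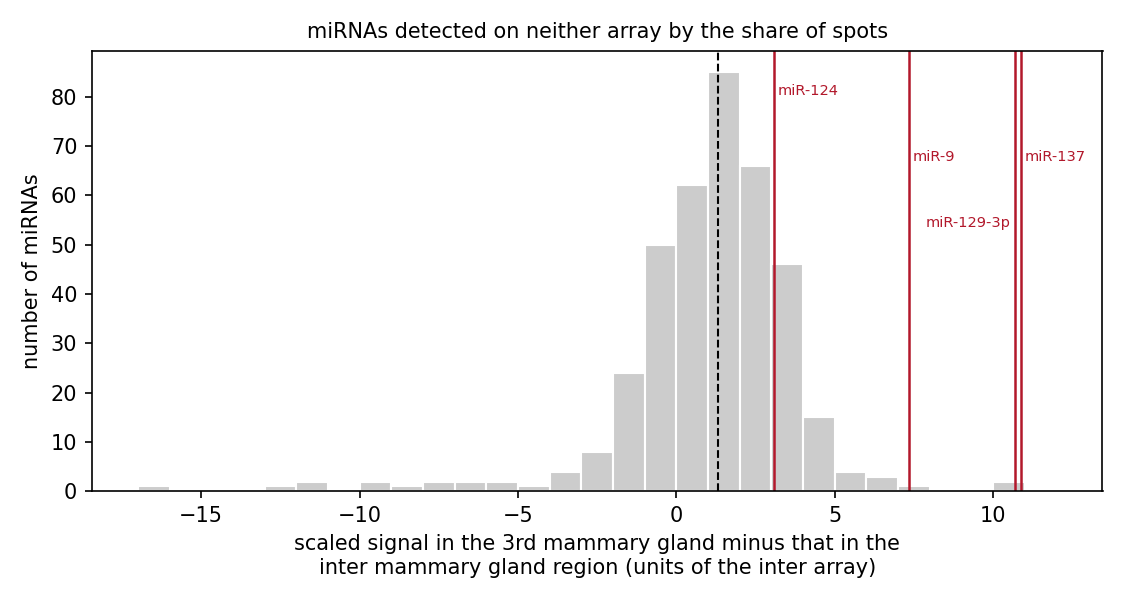
Histogram of the scaled signal in the 3rd mammary gland minus that in the inter mammary gland region (units of the inter mammary gland array) for the 384 miRNAs detected on neither array. The dashed line is the median, 1.32, and the red lines mark miR-124 (3.07), miR-9 (7.35), miR-129-3p (10.68) and miR-137 (10.9).

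miR-128, a brain miRNA that is also made in skeletal muscle, was lower in the gland with both probes. The spots of its first probe had a lowest, median and highest signal of 105.9, 115.4 and 127.3 in the gland, against 145.5, 155.4 and 170.6 in the flank. The spots of its second probe had values of 152.8, 172.3 and 195.1 in the gland, against 223.4, 231.1 and 248.9 in the flank. The regions did not overlap for either probe. At the same position 0 of 18 spots were brighter in the gland after scaling. The scaled signal was 131.8 ± 2.37 (SE over spots) in the gland and 195.4 ± 1.85 in the flank, which is 1.48-fold lower, or -0.57 on the log2 scale (SE 0.029). This lay just under the 1.5-fold used to call a difference, and the call changed with the processing: miR-128 was 1.52-fold lower with the scaled total signal of the software and 1.32-fold lower after normexp correction.

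miR-219, the oligodendrocyte miRNA, had a scaled signal of 29.6 ± 0.880 (SE) in the gland and 37.6 ± 0.940 in the flank, 1.27-fold lower. On the log2 scale this was -0.34 (SE 0.056), and 1 of 20 spots was brighter in the gland. The spots of the regions overlapped for both of its probes, and all 20 lay over the highest negative control on each array. miR-138, known from dendritic spines, had a scaled signal of 19.4 ± 0.689 in the gland and 22.6 ± 1.11 in the flank, -0.22 on the log2 scale (SE 0.088). At the same position 8 of its 20 spots were brighter in the gland. miR-138 was detected with its second probe only, for which the scaled difference was -1.47 ± 1.26 (SE). Before scaling that probe was brighter in the gland, with a mean of 31.5 ± 2.55 (SD, 10 spots) against 30.2 ± 3.23, so its direction turned with the scaling. With the first probe, which had 0 spots well above background on either array, it was -5.02 ± 2.30.

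Of these 3 detected miRNAs, 0 were at least 1.5-fold lower in the gland, where 9.94% of the 312 miRNAs detected on at least 1 array were. Likewise 0 were at least 1.5-fold higher, against 3.21% of the 312. The median log2 ratio of the 3 was -0.34, and that of the 284 miRNAs detected on both arrays was 0.048. The ratio was below that of miR-128 for 26 of the 284 miRNAs, below that of miR-219 for 42 and below that of miR-138 for 52. miR-128 and miR-219 were lower in the gland under every scaling tried. miR-138 was so over both probes, but its detected probe was not. Of the 14 probes of the 7 miRNAs, every spot of the gland lay above every spot of the flank for 2, 1 of miR-137 and 1 of miR-129-3p, as was so for 7.07% of all probes. For 2 others, both of miR-128, every spot lay below, as was so for 7.02% of all probes.

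**Figure D3:**
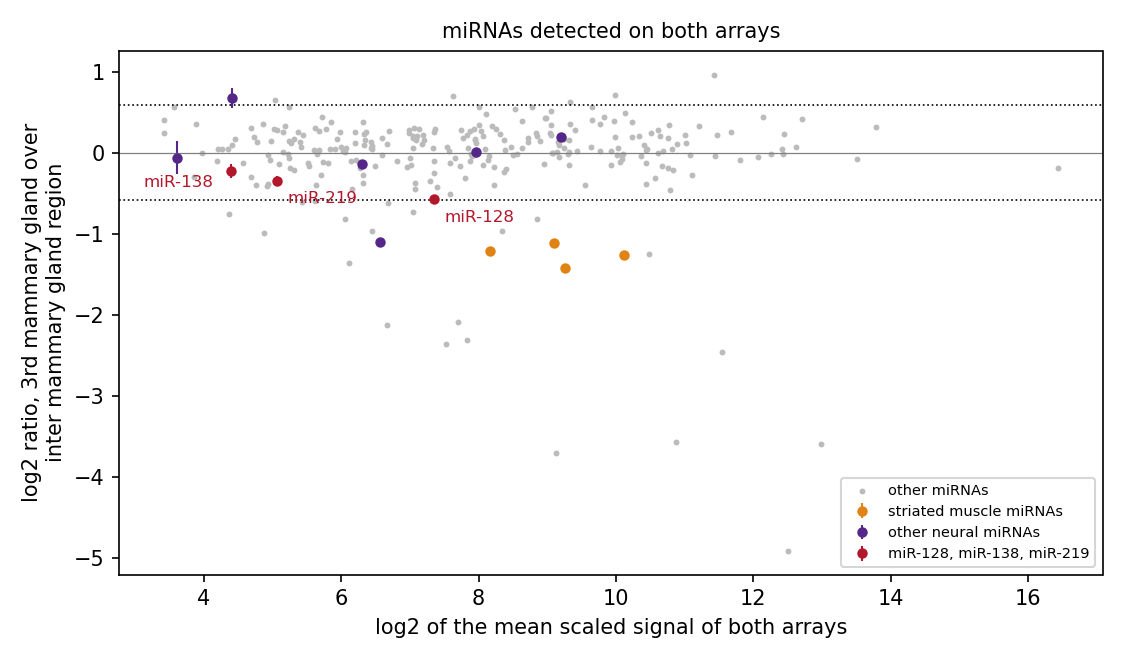
Log2 ratio of scaled signals (3rd mammary gland to inter mammary gland region) against the log2 of their mean, for the 284 miRNAs detected on both arrays. Error bars on the coloured points are the SE over spots and dotted lines mark 1.5-fold. miR-128, miR-138 and miR-219 (red) lie between the dotted lines and below 0, and the 4 miRNAs of striated muscle (orange) lie below the lower line.

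Markers of tissues were set beside these values. The 7 miRNAs of surface epithelium, the miR-200 family with miR-203 and miR-205, were all detected on both arrays, with a summed scaled signal of 10010 in the gland and 9530 in the flank. miR-205 had the brightest signal of the list, at 4874 and 4947. All 5 members of the miR-200 family were higher in the gland, from 1.15-fold for miR-141 to 1.43-fold for miR-200a, and kept this direction under every alternative run. miR-203 was 1.24-fold lower, and miR-205, at -0.021 on the log2 scale (SE 0.024), turned direction with the scaling. The median log2 ratio of the 7 was 0.34, and 0 of them passed 1.5-fold. miR-200a did pass it without scaling (1.56), and when arrays were scaled to the median of the detected probes (1.55) or to the 75th percentile over all probes (1.59). The 4 miRNAs of striated muscle, miR-1, miR-133a, miR-133b and miR-206, were all at least 1.5-fold lower in the gland. Their summed signal was 1504 in the gland and 3610 in the flank, or 2.40-fold lower, and miR-133b, with the brightest signal in the flank, stood at 651.6 and 1562. The muscle miRNAs thus moved in the same direction as miR-128, and their part in its lower signal was not tested. The erythroid miRNAs miR-144 and miR-451 summed to 5277 in the gland and 3899 in the flank, and miR-451, with the brighter signal, stood at 5192 and 3822. The miR-200 family and the erythroid miRNAs thus had the higher signal in the region where miR-9, miR-129-3p and miR-137 had theirs. Within the list of surface epithelium miR-203 went the other way, and miR-205 kept no direction. The part of these markers in the signals of miR-9, miR-129-3p and miR-137 was not tested.

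In a wider list of 15 miRNAs known from neural tissue, the scaled signal was higher in the gland for 12, against 460 of all 696 miRNAs, and the number ran from 9 to 14 under the alternatives that kept all 15 and used measured signals. With the scaled total signal, in which undetected miRNAs hold the stand-in, it was 4. Of the 15, 7 were detected in the gland, 6 in the flank and 8 on neither array. All 8 of the undetected had the higher signal in the gland, by 0.460 to 3.78, as did 284 of the 384 of their class. Of the 6 detected on both arrays 3 had the higher and 3 the lower signal there. Among all 284 miRNAs detected on both arrays, 164 had the higher and 120 the lower signal. miR-338-3p, enriched in oligodendrocytes, was higher in the gland, with a scaled signal of 26.2 ± 1.28 (SE) against 16.4 ± 1.17, or 1.60-fold. It did not pass 1.5-fold with the scaled total signal (1.35), with the brightest probe (1.38) or after normexp (1.14), was not called when detection needed every spot well above background, and was left out with the dim miRNAs. miR-134, a miRNA of dendrites, was lower, with 60.1 ± 1.38 against 129.4 ± 1.37, or 2.15-fold. It was called lower under every alternative, but by 1.56-fold with the brightest probe and 1.53-fold after normexp. The median log2 ratio of the 6 detected on both arrays was -0.023. miR-132, which neuronal activity induces, was detected in the gland only, at 26.1 ± 1.01 against 18.5 ± 0.912, and did not pass 1.5-fold. With the scaled total signal miR-132 did pass it, as the only miRNA of the 15 called higher. No miRNA of the 15 was called by the software in the gland only.

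The other strands of the hairpins of the 7 miRNAs were measured for 4 of them, and 0 were detected on either array. miR-9*, from the same hairpins as miR-9, had a scaled signal of 5.05 ± 0.858 (SE) in the gland and 4.36 ± 0.737 in the flank, a difference of 0.690 ± 1.13. For miR-129-5p, the other strand of miR-129-3p, the signals were -0.872 ± 0.801 and -1.10 ± 1.06. miR-138* stood at 6.98 ± 0.740 and 6.48 ± 1.30, and miR-124* at -2.06 ± 0.798 and -1.24 ± 0.785. The differences of these 4 strands between the regions lay within 1 SE of 0.

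The mature sequences are given to show the seed of each miRNA. By name, 6 of the 7 matched the mouse RefSeq annotation of GRCm38.p6, and older names were assigned to a present strand by name alone. The sequences, seeds and loci rest on that assignment, which was not checked against probe sequences. Sequences are written 5′ to 3′ with the seed in capitals.

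miR-9: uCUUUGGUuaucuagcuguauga

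miR-129-3p: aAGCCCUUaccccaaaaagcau

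miR-137: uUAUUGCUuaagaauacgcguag

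miR-128: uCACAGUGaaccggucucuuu

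miR-138: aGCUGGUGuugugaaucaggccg

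miR-219: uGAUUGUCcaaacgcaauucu

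The 6 seeds were all different, those of miR-9, miR-129-3p and miR-137 included. Among the 445 array miRNAs with a sequence matched by name, no other carried the seed of any of the 6. The GC content was 34.8% for both miR-9 and miR-137, 45.5% for miR-129-3p, 47.6% for miR-128, 56.5% for miR-138 and 38.1% for miR-219.

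The 6 miRNAs come from separate loci. In GRCm38.p6 the mature miR-137 lies at chr3:118433901-118433923 on the plus strand, and no annotated gene other than Mir137 spans its hairpin. The sequence of miR-129-3p lies at chr2:94241376-94241397 on the minus strand, in Mir129-2, within the long non-coding RNA gene Mir670hg. miR-9 is encoded by 3 genes, at chr3:88215613-88215635, chr7:79505279-79505301 and chr13:83738821-83738843, all on the plus strand and each within a long non-coding RNA gene (Gm3764, Mir9-3hg and C130071C03Rik). The array cannot tell which of these copies gave the signal. miR-128 is encoded within 2 protein-coding genes, R3hdm1, at chr1:128202404-128202424 on the plus strand, and Arpp21, at chr9:112118644-112118664 on the minus strand. Of the 2 genes of miR-138 the one at chr8:94324312-94324334 lies within Nup93, and of the 2 genes of miR-219 the one at chr2:29845689-29845709 lies within Cercam.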

How the data were processed

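The authors quantified 1 Agilent 1-colour array per region with Feature Extraction 10.7.3.1 and deposited the background-subtracted intensity of each spot, with a total signal for each miRNA. Control and outlier spots were dropped. The other spots were averaged within each probe, and the array of the gland was multiplied by 0.914, which brought both arrays to the same 75th percentile over probes detected on both. Probes were then averaged within each miRNA. For a miRNA detected on 1 array, the signal on the other was floored at the lowest detected probe there. The SE was taken over spots. The steps were tested on simulated spots. Known folds were given only to miRNAs detected on both arrays, so the simulation does not bear on undetected ones such as miR-9, miR-124, miR-129-3p and miR-137. The 7 miRNAs, the lists of other miRNAs and the rule for naming single miRNAs (the 7 miRNAs, their other strands, markers, list members past 1.5-fold and the 3 nearest quotients) were chosen with earlier results of these data known. The array's grid names another assembly, and no coordinate of it was used. The software was Python 3.11.15 (numpy 2.4.6, pandas 2.3.3, matplotlib 3.10.9) and limma 3.58.1 under R 4.3.3.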

Additional observations from a re-analysis of the deposited data

How the results depend on the processing

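The values were recomputed under 13 alternatives, of which 12 were planned and 1, subtracting the mean of the negative controls, was chosen after seeing the data. miR-9, miR-129-3p and miR-137 kept the higher signal in the gland, and miR-128 and miR-219 the lower one, under every alternative that gave a value. miR-138 kept the lower one over both probes. Its detected probe alone, also examined after seeing the data, had a log2 quotient of -0.072 with the scaling of the report, 0.058 unscaled, 0.087 after scaling to the 75th percentile of all probes, and 0.047 after scaling to the median of the detected ones. miR-9, miR-129-3p and miR-137 could not be counted as 1.5-fold higher, since they had no fold or, with the software's call, a floor above their own signal. At least 1.5-fold lower was 1, miR-128, with the scaled total signal (1.52-fold), when detection needed every spot well above background (1.55-fold) and with the negative controls subtracted (1.502-fold). With the software's own call 6 of the 7 were detected in the gland. When every spot was needed, and also without dim miRNAs, miR-138 dropped out and the detected members were miR-128 and miR-219 only. The median log2 ratio of the detected members was -0.21 with no scaling, -0.19 after scaling to the 75th percentile of all probes, -0.23 after scaling to the median of the detected probes, -0.52 when every spot was needed, -0.11 after normexp, -0.46 without dim miRNAs and -0.43 with the negative controls subtracted. The first 3 of these also moved the median of all miRNAs from 0.048 to 0.18, 0.21 and 0.17, and the split of all miRNAs from 10 higher and 31 lower to 19 and 28, 23 and 27, and 19 and 28. It was 3 and 19 after normexp, 16 and 41 with the scaled total signal, 6 and 31 when every spot was needed and 2 and 19 at a 2-fold threshold. A change of scaling multiplies 1 array by a constant, so it moves the log2 ratios of all miRNAs detected on both arrays alike. A higher threshold lowers the counts by definition. The cause of the other shifts was not tested. For miR-137 the quotient was 260.1 with the scaled total signal, whose divisor is the stand-in of 0.1, 2.38 with the brightest probe and 1.14 after normexp. With the same stand-in as divisor, the log2 quotient was 6.84 for miR-9 and 7.15 for miR-129-3p. No paired analysis was possible because there was 1 array per region. The signal over background limits what can be said of miR-9, miR-124, miR-129-3p and miR-137.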
